A study of Homo sapiens with 6 samples.

Results

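The 10 genes described here encode glycoproteins and enzymes of the extracellular matrix: FN1, SPARC, FBN1, THBS1, TNC, LUM, SPP1, POSTN, LOX and LOXL2. They were followed in TEM4-18 and TEM2-5, 2 derivatives of the prostate cancer line PC-3, and in PC-3 itself. Every probe set to which the platform annotation gave exactly 1 symbol, equal to one of these names, was taken. That gave 37 of the 41097 probe sets with a single symbol, for 10 of 19775 genes. Expression arrays were run on total RNA, 2 arrays a line. TEM4-18 was obtained by plating PC-3 cells on a confluent human lung microvascular endothelial line and recovering cells that had migrated. TEM2-5 came from a repeat of that experiment. PC-3, the parental line, comes from a bone metastasis of prostate cancer. All 3 lines grew in DMEM/F12 with serum, and no agent or engineered allele is given for any of them. Each TEM line is a single isolate. Whether a line's 2 arrays stem from separate cultures is not stated, so p-values cover only the spread of these arrays, possibly a technical one.

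Fibronectin (FN1) and fibrillin-1 (FBN1) are structural glycoproteins: fibronectin fibrils bind integrins and help collagen assemble, and fibrillin-1 forms the microfibrils that carry elastin and hold latent TGF-beta. Matricellular proteins, among them thrombospondin-1 (THBS1), SPARC, tenascin-C (TNC), osteopontin (SPP1) and periostin (POSTN), add little to the scaffold and instead adjust how cells attach to it and receive growth factors. Lumican (LUM) is a small leucine-rich proteoglycan that controls collagen fibril growth. LOX and LOXL2 are copper-dependent amine oxidases that cross-link collagen and elastin.

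The data show gains in fibrillin-1 and LOXL2, a loss of thrombospondin-1 that was graded across the lines, and no called change in fibronectin. FBN1 and LOXL2 rose in both TEM lines, about 3-fold and 2-fold. THBS1 fell in both, to 2.80% of the PC-3 mean in TEM4-18 and 20.6% in TEM2-5. SPARC rose and LUM fell in TEM4-18, both at low signal. SPP1, POSTN and LOX had no probe set whose mean over the 6 arrays passed the filter, and they were not tested.

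Of the 10 genes, 7 had a probe set with a mean above the filter of 174 array units and were tested, and 3 did not. In TEM4-18 against PC-3, 5 of the 7 were called by limma at an adjusted p under 0.05, 3 higher and 2 lower. The background share is 29.3% of 13614 tested genes, 13.3% higher and 16.0% lower. In TEM2-5 against PC-3, 3 of the 7 were called, 2 higher and 1 lower, where 19.0% of genes were called, 8.98% higher and 10.1% lower. When the TEM lines' mean was set against PC-3, 5 were called, 3 higher and 2 lower, where 30.0% of genes were, 13.8% higher and 16.2% lower. On the brightest probe set, all 4 TEM arrays lay above both PC-3 arrays for FBN1, LOXL2 and SPARC, as for 21.1% of tested genes, and below them for THBS1 and LUM, as for 25.7%. The comparisons with PC-3 share the same PC-3 arrays. SPARC passed the filter through the TEM arrays and LUM through the PC-3 and TEM2-5 arrays, so these counts describe the genes and support nothing further. The median log2 fold change over all tested genes was -0.04 in TEM4-18 and -0.02 in TEM2-5.

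**Figure D1:**
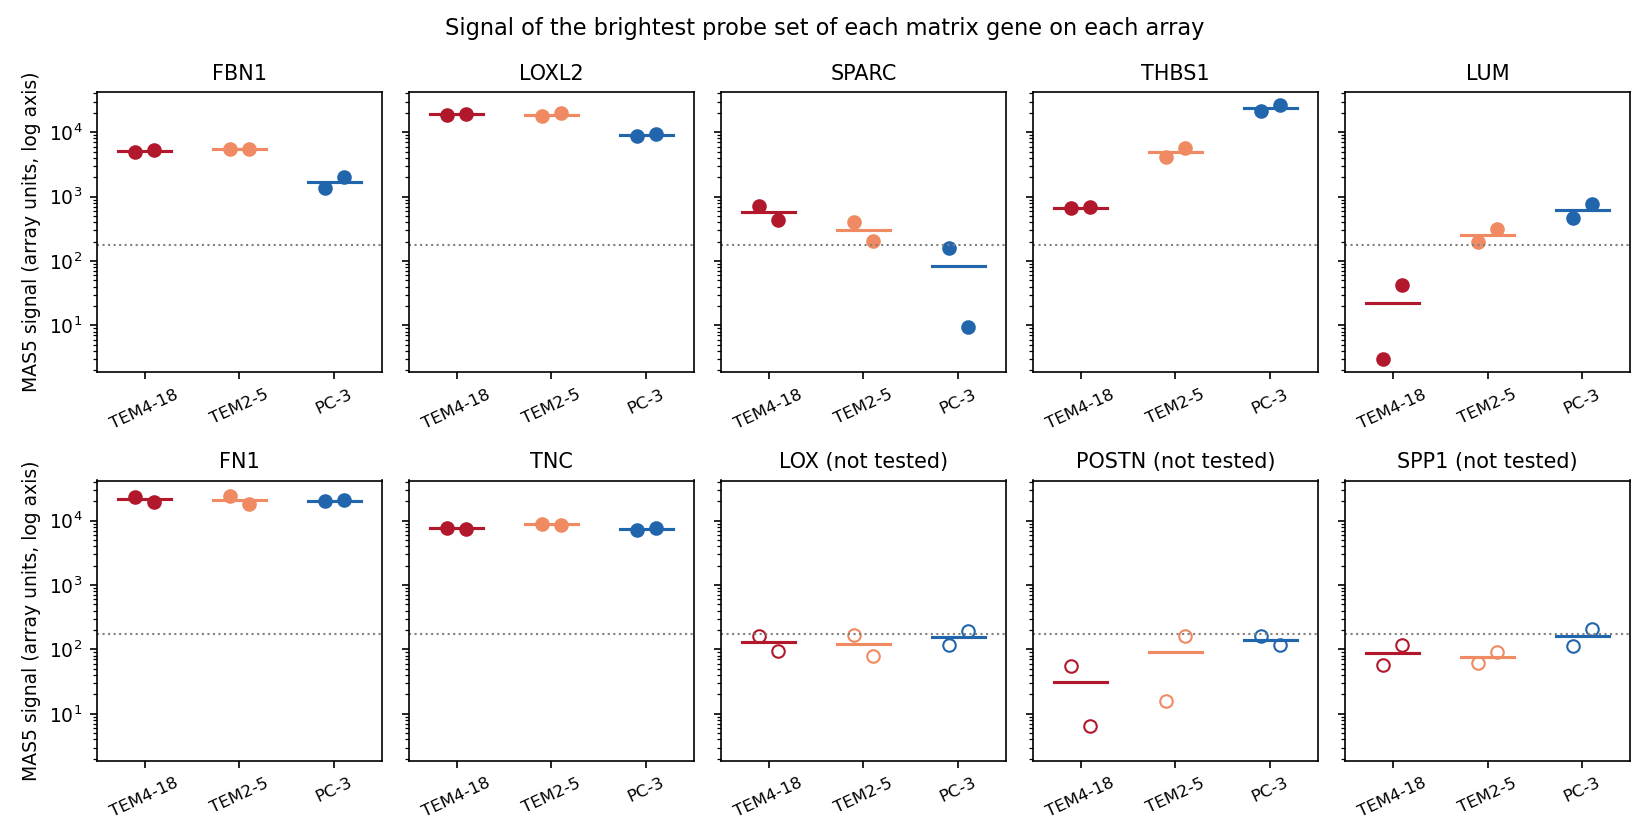
MAS5 signal in array units (log axis) of the brightest probe set of each of the 10 genes, with 1 point for each of the 2 arrays a line and a bar at their mean. The dotted line is the filter, and open points belong to genes that were not tested. The 4 TEM arrays lie above both PC-3 arrays for FBN1, LOXL2 and SPARC and below them for THBS1 and LUM.

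The RefSeq start-site sequences on GRCh38.p14 used here covered 8 of the 10 genes, all but LUM and LOXL2. The 250 bases before the start are printed for 3 genes that were called, THBS1, FBN1 and SPARC, so that their composition can be seen beside the values. THBS1 is at chr15:39580829-39581078 on the plus strand, FBN1 at chr15:48644971-48645220 on the minus strand and SPARC at chr5:151686916-151687165 on the minus strand. Each is written in the direction of transcription, and capitals mark matches, on either strand, to the motifs named after the sequences.
THBS1: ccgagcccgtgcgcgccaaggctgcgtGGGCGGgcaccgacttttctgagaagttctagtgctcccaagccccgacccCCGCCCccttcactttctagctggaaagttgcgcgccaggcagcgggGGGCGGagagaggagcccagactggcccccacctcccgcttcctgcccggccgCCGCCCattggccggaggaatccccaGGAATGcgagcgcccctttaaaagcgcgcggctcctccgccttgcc
FBN1: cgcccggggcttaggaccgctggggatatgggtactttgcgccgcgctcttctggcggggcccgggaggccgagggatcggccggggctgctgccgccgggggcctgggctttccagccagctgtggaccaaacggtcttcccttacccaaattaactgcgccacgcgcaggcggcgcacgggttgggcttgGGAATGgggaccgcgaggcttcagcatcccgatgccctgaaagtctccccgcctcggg
SPARC: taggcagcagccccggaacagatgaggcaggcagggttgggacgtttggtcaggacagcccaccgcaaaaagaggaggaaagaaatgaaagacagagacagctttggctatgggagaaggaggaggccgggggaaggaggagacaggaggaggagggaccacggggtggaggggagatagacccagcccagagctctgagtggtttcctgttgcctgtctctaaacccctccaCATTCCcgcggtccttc
Both strands were searched for 5 motifs. No match overlapped another in these 3 windows. Each window holds 1 match to GGAATG, the core that TEAD factors bind, which lies 46 to 41 bases before the start in THBS1, 58 to 53 in FBN1 and 17 to 12 in SPARC. It occurs in 11.9% of 34796 RefSeq windows of this length. THBS1 also holds 4 matches to GGGCGG, the SP1 box, a motif in 42.6% of windows. There is no match in the 3 windows to CAGGTG, an E-box that ZEB proteins bind and that 17.5% of windows hold. Nor is there one to the TATA box TATAAA, found in 10.8% of windows. The AP-1 motif TGANTCA, in 6.59% of windows, is absent from them as well. GC content is 69.6% in THBS1 and FBN1 and 59.2% in SPARC, beside a median of 58.0%. A match is a description of the letters and says nothing about binding in these cells.

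Arrays of a line correlated at 0.976 to 0.980 across tested probe sets, and arrays of different lines at 0.923 to 0.972. All 8 epithelial markers were called lower on the TEM lines' mean, with summed signals of 64845 to 72352 in TEM4-18 and 82426 to 89951 in TEM2-5, against 200952 to 206734 in PC-3. Of 6 prostate luminal markers measured, HOXB13 and TMPRSS2 were called higher, KLK3 was tested and not called, and KLK2, ACP3 and FOLH1 lay below the filter. Of 12 fibroblast markers, 9 were tested, 2 were called higher (COL1A1, COL6A3) and 1 lower (S100A4). PDGFRA, not called on the mean, was called lower in TEM4-18 (-0.77) and higher in TEM2-5 (1.32). The sum of the 12 was 53165 to 57445 in TEM4-18 and 54497 to 59875 in TEM2-5, against 24814 to 27595 in PC-3. That sum was mostly COL1A1 and COL6A3. Their means were 20625 and 30975 in TEM4-18 and 19986 and 30452 in TEM2-5, against 7584 and 12984 in PC-3. PDGFRB, DPT and FAP lay below the filter. Of 16 endothelial markers, 8 were tested and 4 were called higher on the mean (KDR, ESAM, ROBO4, ENG), where 30.0% of all tested genes were called. PECAM1, FLT1, MMRN2 and EGFL7 were tested and not called. The sum of the 16 was 5497 to 7035 in TEM4-18 and 5793 to 5867 in TEM2-5, against 4159.7 to 4268 in PC-3. In TEM2-5 alone, ESAM (limma adjusted p = 0.0526), CLDN4 (limma adjusted p = 0.134) and S100A4 (limma adjusted p = 0.204) were not called. CDH5, VWF, TEK, TIE1, CLDN5, ERG, EMCN and MMRN1 lay below the filter. Of 6 leukocyte markers measured, 2 were tested and 0 were called by limma, nor did any have an unadjusted p under 0.05. The part of these markers in the results on the matrix genes was not tested. In RNA of whole cultures, fewer cells that express a gene and less RNA of it per cell cannot be told apart.

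FBN1, the core protein of extracellular microfibrils, was higher in both TEM lines on all 3 of its probe sets. The brightest, 202766_s_at, read 4883 and 5232 in TEM4-18 and 5425 and 5496 in TEM2-5, against 1365 and 2017 in PC-3. All 4 TEM arrays stood far above both PC-3 arrays, and the PC-3 arrays were the more scattered. The group means were 5057 ± 247 in TEM4-18 and 5461 ± 50.7 in TEM2-5, against 1691 ± 461 in PC-3 (SD, n = 2 each), ratios of 2.99 and 3.23. On the log2(signal + 51.8) scale the rise was 1.58 ± 0.16 in TEM4-18 (SE, limma adjusted p = 4.24e-05) and 1.69 ± 0.16 in TEM2-5 (limma adjusted p = 7.09e-05). Probe set 202765_s_at read 1979 and 1864 in TEM4-18 and 1891 and 2097 in TEM2-5, against 409 and 748 in PC-3. Its rises were 1.70 ± 0.22 and 1.75 ± 0.22. The dimmest, 235318_at, read 682 and 595 in TEM4-18 and 734 and 691 in TEM2-5, against 107 and 302 in PC-3, with rises of 1.54 ± 0.34 and 1.69 ± 0.34. The 3 probe sets thus gave log2 rises of similar size, and none was called between TEM4-18 and TEM2-5. For the brightest, that difference was -0.11, with a 95% interval of -0.46 to 0.24.

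LOXL2, a lysyl oxidase-like enzyme that cross-links fibrillar and basement membrane collagen, was about 2-fold higher in both TEM lines. Probe set 202998_s_at read 18829 and 18952 in TEM4-18 and 17766 and 19756 in TEM2-5, against 8733 and 9378 in PC-3. The TEM arrays lay close together at a level clear of PC-3. The means were 18891 ± 87.3 in TEM4-18 and 18761 ± 1407 in TEM2-5, against 9055 ± 456 in PC-3 (SD, n = 2 each). The rises were 1.06 ± 0.08 in TEM4-18 (limma adjusted p = 6.04e-06) and 1.05 ± 0.08 in TEM2-5 (limma adjusted p = 2.11e-05). Between the TEM lines the difference was 0.01, with a 95% interval of -0.16 to 0.19. The dimmer probe set 202997_s_at read 1498 and 1671 in TEM4-18 and 1235 and 1214 in TEM2-5, against 594 and 630.3 in PC-3. It was called higher in both lines as well, by 1.30 ± 0.15 and 0.94 ± 0.15. The other 2 LOXL2 probe sets, 228808_s_at and 202999_s_at, lay between 16.2 and 251 on the 6 arrays and were not tested.

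LOX, the founding member of that enzyme family, was not measurable at the same confidence. Its probe set 204298_s_at read 163 and 93.6 in TEM4-18 and 167 and 79.1 in TEM2-5, against 118 and 195 in PC-3, so the groups overlapped. Probe set 215446_s_at read 20.6 and 68.5 in TEM4-18 and 179 and 99.3 in TEM2-5, against 210.0 and 238 in PC-3. All 4 TEM arrays lay below PC-3 on that probe set, which failed the filter. The dimmest, 213640_s_at, showed the opposite order: it read 39.9 and 27.2 in TEM4-18 and 193 and 25.6 in TEM2-5, against 19.0 and 22.8 in PC-3. No direction can be given for LOX from these probe sets. When no filter was applied, the difference of 215446_s_at in TEM4-18 was -1.56 (limma adjusted p = 0.0576).

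THBS1, thrombospondin-1, a large secreted glycoprotein that inhibits angiogenesis and activates latent TGF-beta, fell in both TEM lines. Probe set 201110_s_at read 661 and 682 in TEM4-18 and 4163 and 5726 in TEM2-5, against 21229 and 26727 in PC-3. The 3 lines formed 3 separate levels, with TEM2-5 between the others. The means were 672 ± 15.0 in TEM4-18 and 4944 ± 1105 in TEM2-5, against 23978 ± 3888 in PC-3 (SD, n = 2 each), so PC-3 was 35.7-fold and 4.85-fold above them. On the log2 scale the fall was -5.04 ± 0.15 in TEM4-18 (limma adjusted p = 1.03e-08) and -2.27 ± 0.15 in TEM2-5 (limma adjusted p = 1.16e-05). TEM4-18 was lower than TEM2-5 by a log2 difference of -2.77 ± 0.15 (limma adjusted p = 4.80e-06), with a 95% interval of -3.11 to -2.43. With all 7 probe sets averaged that difference was -1.65 and still called (limma adjusted p = 0.0249). Of the 7 tested genes, only THBS1 was called between the TEM lines, a contrast in which 2.75% of all tested genes were called, 0.492% higher and 2.26% lower.

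All 7 THBS1 probe sets passed the filter, and 6 were called lower in each TEM line. Probe set 201109_s_at read 381 and 497 in TEM4-18 and 2719 and 2961 in TEM2-5, against 12449.6 and 20229 in PC-3. Probe set 201108_s_at read 407 and 408 in TEM4-18 and 1555 and 2285 in TEM2-5, against 9394 and 16253 in PC-3. Probe set 201107_s_at read 56.4 and 15.0 in TEM4-18 and 213 and 270.1 in TEM2-5, against 1635 and 3117 in PC-3. Each of these showed the same 3 separate levels. Each was called lower in TEM4-18 than in TEM2-5, by -2.57 ± 0.20, -2.08 ± 0.24 and -1.78 ± 0.37. With no filter, 201109_s_at and 201108_s_at kept that call. For 201107_s_at it was close to the threshold (limma adjusted p = 0.0431) and was lost with no filter (limma adjusted p = 0.151). The 201107_s_at reading of 15.0 in TEM4-18 lay under the pseudocount added before taking log2, so the size of its difference depends on that setting. Probe set 239336_at read 49.3 and 3.87 in TEM4-18 and 86.2 and 276 in TEM2-5, against 992 and 2094 in PC-3. Probe set 235086_at read 68.4 and 99.5 in TEM4-18 and 143 and 234 in TEM2-5, against 691 and 1575 in PC-3. On both, the TEM4-18 arrays lay below the TEM2-5 arrays, but the difference between those lines was not called (limma adjusted p = 0.249 and 0.484). Probe set 215775_at stood apart from the other 6: it read 231 and 251 in TEM4-18 and 202 and 295 in TEM2-5, against 389 and 746 in PC-3. Its log2 differences were -1.02 ± 0.35 in TEM4-18 (limma adjusted p = 0.0556) and of the same size in TEM2-5 (limma adjusted p = 0.0811), and it was called only on the TEM lines' mean (limma adjusted p = 0.0317).

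**Figure D2:**
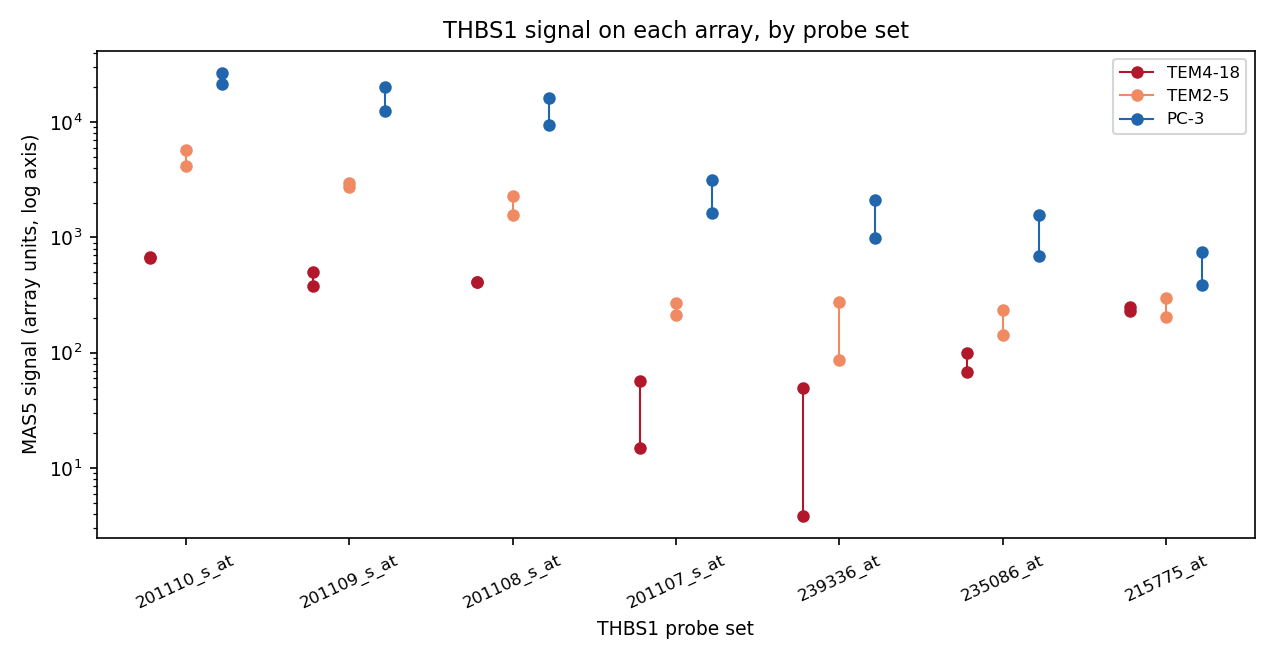
MAS5 signal in array units (log axis) of the 7 THBS1 probe sets, with the 2 arrays of each line joined by a line. On the first 6 probe sets TEM4-18 lies lowest, TEM2-5 between and PC-3 highest, and on 215775_at both TEM lines lie between 202 and 295.

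SPARC, a collagen-binding matricellular protein also known as osteonectin, was higher in TEM4-18 but rested on low and scattered signals. Probe set 200665_s_at read 711 and 434 in TEM4-18 and 406 and 204 in TEM2-5, against 159.9 and 9.46 in PC-3. All 4 TEM arrays lay above PC-3, although the 2 PC-3 arrays differed greatly from each other. The means were 573 ± 195 in TEM4-18 and 305 ± 142 in TEM2-5, against 84.7 ± 106 in PC-3 (SD, n = 2 each). The log2 rise in TEM4-18 was 2.42 ± 0.57 (limma adjusted p = 0.00984), with a 95% interval of 1.16 to 3.67. Without TEM4-18 replicate 1 it was 2.09 and no longer called (limma adjusted p = 0.0823). Without PC-3 replicate 2, the array at 9.46, it was 1.52 and still called. In TEM2-5 the difference was 1.59 ± 0.57 and was not called (limma adjusted p = 0.0867), but it was 2.48 and called without PC-3 replicate 1 (limma adjusted p = 0.0107). The rise on the mean of both lines, 2.00 ± 0.49, was 1.11 and not called without PC-3 replicate 2 (limma adjusted p = 0.0920). The lines' difference, TEM4-18 minus TEM2-5, was 0.83 ± 0.57 and was not called (limma adjusted p = 0.634). A dimmer SPARC probe set, 212667_at, read 303 and 254 in TEM4-18 and 120.4 and 96.3 in TEM2-5, against 109 and 28.9 in PC-3. It was not tested, and its TEM2-5 and PC-3 arrays overlapped.

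TNC, tenascin-C, a hexameric protein that loosens cell adhesion, was bright and nearly level. Probe set 201645_at read 7587 and 7560.0 in TEM4-18 and 8902 and 8653 in TEM2-5, against 7192 and 7681 in PC-3. Both TEM2-5 arrays were the highest of the 6, and TEM4-18 lay within the PC-3 range. The log2 difference was 0.03 ± 0.08 in TEM4-18 (limma adjusted p = 0.855), with a 95% interval of -0.16 to 0.21. In TEM2-5 it was 0.24 ± 0.08 (limma adjusted p = 0.0788), with a 95% interval of 0.05 to 0.42 before adjustment. Probe set 216005_at read 475 and 429 in TEM4-18 and 467 and 466 in TEM2-5, against 509 and 553 in PC-3, and was not called in any contrast. A dimmer TNC probe set, 237169_at, behaved otherwise: it read 255 and 268 in TEM4-18 and 88.4 and 207 in TEM2-5, against 12.6 and 26.0 in PC-3. It failed the filter. With no filter its difference in TEM4-18 was 2.15 ± 0.44 (limma adjusted p = 0.0141), and with the 3 probe sets averaged TNC was called higher there, by 0.65 (limma adjusted p = 0.0173).

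SPP1 and POSTN, matricellular ligands of integrins, stayed low. SPP1 probe set 209875_s_at read 57.4 and 116 in TEM4-18 and 62.4 and 90.7 in TEM2-5, against 112 and 208 in PC-3. POSTN probe set 210809_s_at read 56.1 and 6.46 in TEM4-18 and 16.0 and 165 in TEM2-5, against 162 and 119 in PC-3. For each gene, the TEM and PC-3 arrays overlapped and every mean stayed under the filter. The other SPP1 probe set, 1568574_x_at, read 48.6 and 52.8 in TEM4-18 and 106 and 72.3 in TEM2-5, against 128 and 65.9 in PC-3. The other 3 POSTN probe sets lay between 4.25 and 112 on the 6 arrays. On none of these 4 did the TEM arrays separate from PC-3. When the filter was dropped, 0 probe sets of SPP1, POSTN or LOX were called by limma in any contrast, at a lowest adjusted p of 0.0576, while 2 of those 36 tests had an unadjusted p under 0.05.

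FN1, the adhesive glycoprotein that fibroblasts and many carcinoma cells deposit as fibrils, was bright on every array and was not called in any contrast. Probe set 211719_x_at read 23173 and 19650.4 in TEM4-18 and 23958 and 18273 in TEM2-5, against 19990.0 and 21035 in PC-3. Both PC-3 arrays lay inside the range of the TEM arrays. The log2 difference was 0.06 ± 0.12 in TEM4-18 (limma adjusted p = 0.781) and 0.03 ± 0.12 in TEM2-5 (limma adjusted p = 0.908). The 95% intervals were -0.21 to 0.32 in TEM4-18 and -0.24 to 0.29 in TEM2-5. All 7 FN1 probe sets were tested and 0 were called by limma in any of the 4 contrasts, while 2 of the 28 tests had an unadjusted p under 0.05. The bright probe sets 210495_x_at, 212464_s_at and 216442_x_at read 17691 to 23039 in TEM4-18 and 16903 to 23249.6 in TEM2-5, against 18609 to 20969.8 in PC-3. Probe set 214701_s_at read 1923 and 1100.2 in TEM4-18 and 1747 and 1491 in TEM2-5, against 1389 and 1241 in PC-3. Probe set 214702_at read 425 and 167 in TEM4-18 and 437 and 277 in TEM2-5, against 340.1 and 241 in PC-3. The TEM and PC-3 arrays overlapped on each of these 5. The dim 1558199_at read 291 and 190.1 in TEM4-18 and 336 and 333 in TEM2-5, against 144 and 152 in PC-3. All 4 TEM arrays were above PC-3 there, with differences of 0.53 ± 0.36 (limma adjusted p = 0.332) and 0.95 ± 0.36 (limma adjusted p = 0.105).

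LUM, lumican, was lower in TEM4-18. Probe set 201744_s_at read 2.95 and 42.3 in TEM4-18 and 198 and 316 in TEM2-5, against 473 and 759.6 in PC-3. The 3 lines did not overlap, and TEM4-18 lay under the pseudocount of 51.8, so the size of its fall depends on that setting. The means were 22.6 ± 27.8 in TEM4-18 and 257 ± 83.2 in TEM2-5, against 616 ± 203 in PC-3 (SD, n = 2 each). The log2 fall in TEM4-18 was -3.18 ± 0.46 (limma adjusted p = 0.000553). It was -1.82 with 4 times the pseudocount, -5.52 with a pseudocount of 1 and -1.95 with both LUM probe sets averaged, and it was called in each. In TEM2-5 the difference was -1.11 ± 0.46 (limma adjusted p = 0.138), and TEM4-18 minus TEM2-5 was -2.08 ± 0.46 (limma adjusted p = 0.0548). The fall on the mean of both lines, -2.15 ± 0.40, was -1.83 and not called without PC-3 replicate 2 (limma adjusted p = 0.0620). The other LUM probe set, 229554_at, was not tested and showed another order: it read 37.3 and 67.3 in TEM4-18 and 155 and 172 in TEM2-5, against 115 and 118 in PC-3.

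**Figure D3:**
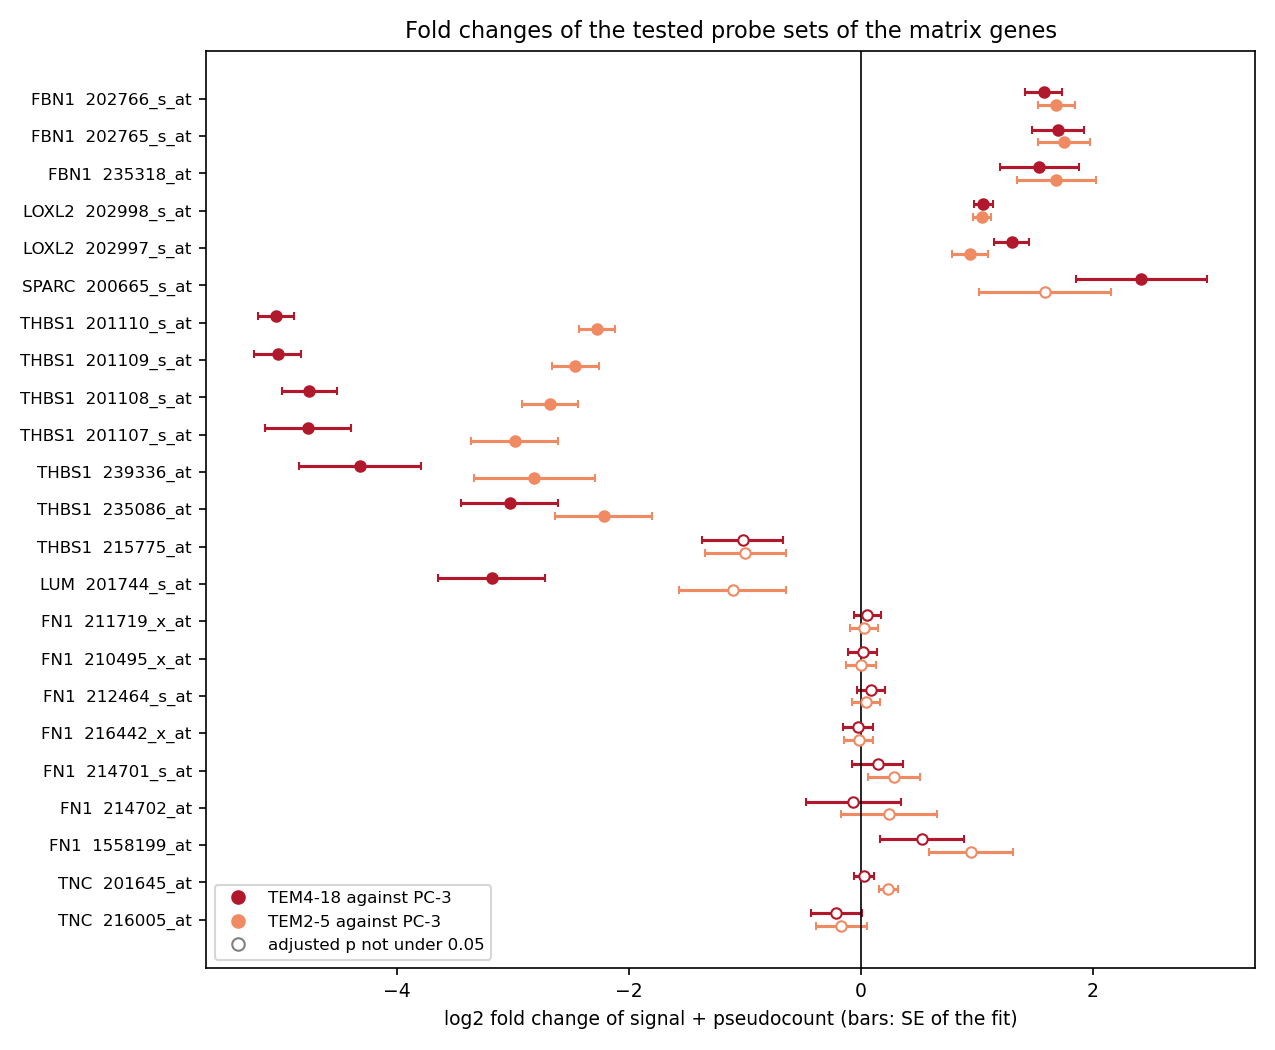
Log2 fold change of signal plus pseudocount for the 23 tested probe sets, TEM4-18 against PC-3 in red and TEM2-5 against PC-3 in orange, with bars of 1 SE of the fit and open points where the adjusted p was not under 0.05. FBN1 and the brighter LOXL2 probe set nearly coincide in the 2 lines, and 6 THBS1 probe sets lie further to the left in TEM4-18. The brightest FN1 probe sets lie near 0, while 214701_s_at lies at 0.14 and 0.29 and 1558199_at at 0.53 and 0.95, none called.

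By probe set, 13 of the 23 tested were called in TEM4-18 (6 higher, 7 lower), where 25.6% of all tested probe sets were called, 12.8% in each direction. In TEM2-5, 11 were called (5 higher, 6 lower), where 16.3% were, 8.67% higher and 7.59% lower. On the TEM lines' mean, 14 were called (6 higher, 8 lower), where 26.4% were, 13.5% higher and 12.9% lower. Between TEM4-18 and TEM2-5, 4 were called, all lower and all of THBS1, where 1.78% were, 0.357% higher and 1.43% lower. Probe sets of a gene share its transcripts and are not replicates. SPARC 200665_s_at passed the filter through the TEM arrays and LUM 201744_s_at through the PC-3 and TEM2-5 arrays. THBS1 201107_s_at, 239336_at and 235086_at read under the filter of 174 in TEM4-18 and passed through the other arrays. These counts therefore describe the probe sets and support nothing further.

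The genes whose pattern lay closest to 3 of these genes were ranked over the 6 arrays by the root-mean-square distance of log2 values after each gene was centred on its mean. For THBS1 they were HS3ST3A1, a heparan sulfate sulfotransferase (0.135), the TEAD cofactor VGLL1 (0.182), the hook protein HOOK1 (0.213) and AP1M2, a subunit of the epithelial clathrin adaptor (0.283). HS3ST3A1 read 59.8 and 92.2 in TEM4-18 and 618 and 819 in TEM2-5, against 3872 and 4497 in PC-3. For LUM they were the BMP antagonist NBL1 (0.278), the thyroid hormone receptor THRB (0.287), the forkhead factor FOXQ1 (0.287) and the IgM receptor FCMR (0.336). For SPARC they were the galactosyltransferase B3GALT5 (0.418), SSTR5-AS1 (0.428), the phosphodiesterase PDE3A (0.441) and the netrin NTNG1 (0.448). The closest pattern to SPARC was further from it than all 4 were from THBS1 or LUM.

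Other genes of the matrix were counted with the TEM lines' mean set against PC-3, in lists that leave these 10 out. Among the matricellular relatives, 4 of 14 tested genes were called higher and 0 lower by limma (1 lower at an unadjusted p under 0.05), with a median log2 fold change of 0.10. That is 28.6% called, near the 30.0% of all tested genes in this comparison. They were SPOCK3, a proteoglycan of the SPARC family (2.17 ± 0.16), CCN3 (1.32 ± 0.09), the connective tissue growth factor CCN2 (1.02 ± 0.12) and the follistatin-like FSTL1 (0.64 ± 0.05). SPOCK3 read 1688 and 2251 in TEM4-18 and 1189 and 1089.5 in TEM2-5, against 309.9 and 274 in PC-3. With its probe sets averaged SPOCK3 was at 1.34 and still called. These 4 genes moved in the direction opposite to THBS1, which belongs to the same class, while the other 10 tested relatives were not called. Of those, CCN1 had all 4 TEM arrays below both PC-3 arrays (-0.20 ± 0.07).

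Among the elastic fibre and microfibril genes, the partners of fibrillin-1, 6 of 14 tested were called higher and 2 lower, 57.1% in all beside 30.0% of all tested genes, with a median of 0.23. LTBP1, which anchors latent TGF-beta to microfibrils, read 27348 and 24510 in TEM4-18 and 27213 and 24242 in TEM2-5, against 8466 and 9303 in PC-3, a rise of 1.53 ± 0.08. The microfibril glycoprotein MFAP2 (1.37 ± 0.33), fibulin-1 (FBLN1, 1.05 ± 0.15) and fibulin-4 (EFEMP2, 0.81 ± 0.25) were the next. EMILIN2 (0.65 ± 0.11) and the other tested fibrillin, FBN2 (0.63 ± 0.07), were the rest of those called higher. FBN2 was called in TEM4-18 (0.62, limma adjusted p = 0.000208) and in TEM2-5 (0.64, limma adjusted p = 0.000387). MFAP2 was not called in TEM2-5 (limma adjusted p = 0.108). It read 580 and 499 in TEM4-18 and 210 and 416 in TEM2-5, against 164 and 91.6 in PC-3. MFAP2 passed the filter through the TEM arrays, so the list's count only describes the genes. EFEMP2 was called in neither line (limma adjusted p = 0.0569 in TEM4-18 and 0.108 in TEM2-5). EFEMP1, which encodes fibulin-3, fell: it read 613 and 806 in TEM4-18 and 1212 and 1720 in TEM2-5, against 5958 and 7911 in PC-3, a difference of -2.70 ± 0.17. With its probe sets averaged EFEMP1 was at -1.58 and still called. LTBP2 fell by 0.72 on the log2 scale, a call made on 1 of its 2 tested probe sets. Without PC-3 replicate 2, MFAP2 was at 1.07 (limma adjusted p = 0.0792) and EFEMP2 at 0.35 (limma adjusted p = 0.343). The EFEMP2 call was also lost without either array of TEM4-18 or of TEM2-5, at 0.74 to 0.87, and it was at 1.27 without PC-3 replicate 1.

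The cross-linking and hydroxylating enzymes split. Of 14 tested, 3 were called higher and 6 lower, 64.3% in all beside 30.0% of all tested genes, with a median of -0.20. LOXL4 joined LOXL2 among the higher: it read 2464 and 2228 in TEM4-18 and 1879 and 1350.1 in TEM2-5, against 565 and 649 in PC-3, a rise of 1.59 ± 0.15. With its probe sets averaged LOXL4 was at 0.64 and not called (limma adjusted p = 0.126). The procollagen C-proteinase enhancers PCOLCE (1.00 ± 0.21) and PCOLCE2 (0.58 ± 0.11) were also higher. LOXL1, which cross-links elastin, read 3878 and 4920.0 in TEM4-18 and 6413 and 6449 in TEM2-5, against 9936 and 10794 in PC-3, a fall of -0.96 ± 0.10. LOXL3 fell by 1.08, the collagen lysyl hydroxylase PLOD2 by 1.31 and the prolyl hydroxylase P4HA2 by 0.52 on the log2 scale. P4HA2 was not called in TEM2-5 (limma adjusted p = 0.062). PCOLCE (0.62, limma adjusted p = 0.0537), LOXL3 (-0.99, limma adjusted p = 0.0516) and P4HA2 (-0.42, limma adjusted p = 0.0512) were not called without PC-3 replicate 2, nor was PCOLCE when no mean-variance trend was fitted (limma adjusted p = 0.0599). Within the lysyl oxidase family, LOXL2 and LOXL4 were thus higher and LOXL1 and LOXL3 lower in the TEM lines.

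Small leucine-rich proteoglycans, the relatives of lumican, were counted together with versican. Of the 7 tested, 0 were called higher by limma (0 at an unadjusted p under 0.05) and 1 lower, with a median of -0.39. That is 14.3% called, below the 30.0% of all tested genes. The 1 was VCAN, versican, a large hyaluronan-binding proteoglycan, so no tested relative of lumican was called on the mean. In TEM4-18 against PC-3, 2 of the 7 were called, both lower, 28.6% beside 29.3% of all tested genes. They were VCAN and the lumican relative TSKU (-0.62 ± 0.16, limma adjusted p = 0.0163). VCAN read 631 and 772 in TEM4-18 and 1063 and 1513 in TEM2-5, against 3780.2 and 4444 in PC-3, a fall of -2.06 ± 0.16. Of 19 other matrix glycoproteins, 1 was called higher (ECM1, 0.80 ± 0.13) and 4 lower, 26.3% in all beside 30.0% of all tested genes, with a median of 0.05. NPNT, nephronectin, an integrin ligand of basement membranes, read 207 and 109 in TEM4-18 and 747 and 859 in TEM2-5, against 3158 and 3279 in PC-3, a fall of -2.97 ± 0.20. SRPX2 fell by 2.24, SRPX by 0.73 and matrilin-2 (MATN2) by 0.28 on the log2 scale. In TEM2-5, SRPX2 and MATN2 were not called (limma adjusted p = 0.0663 and 0.187). SRPX2 was not called without PC-3 replicate 1 (-2.06, limma adjusted p = 0.0919) or PC-3 replicate 2 (-2.42, limma adjusted p = 0.0524), and MATN2 was not called without any 1 of PC-3 replicates 1 and 2, TEM2-5 replicate 2 and TEM4-18 replicate 1, at -0.31 to -0.22. With its probe sets averaged MATN2 was at 0.17 (limma adjusted p = 0.612).

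Of 15 tested receptors that bind these proteins, 2 were called higher and 6 lower, 53.3% in all beside 30.0% of all tested genes, with a median of -0.24. ITGB8, the integrin subunit that activates latent TGF-beta, read 592 and 495 in TEM4-18 and 2267 and 2006 in TEM2-5, against 6408 and 5272 in PC-3, a fall of -2.36 ± 0.13. Of its 2 tested probe sets, 1 had this call, and their average was at -1.22, still called (limma adjusted p = 0.0127). ITGAV, its alpha partner, fell by 0.85, and the syndecans SDC2 and SDC4 fell by 1.32 and 0.51 on the log2 scale. The fibronectin receptor subunit ITGA5 rose by 0.60 ± 0.12. For the hyaluronan and osteopontin receptor CD44 the brightest probe set was higher by 0.35 ± 0.07, but the mean over its probe sets was lower by -0.55 (limma adjusted p = 0.00207), so CD44 has no settled direction. Its call was also lost with no mean-variance trend (limma adjusted p = 0.0844). In the TGF-beta axis, 9 of 20 tested genes were called higher and 2 lower, 55.0% in all beside 30.0% of all tested genes, with a median of 0.24. The transcriptional coactivator WWTR1 (0.82 ± 0.12) and the co-receptor TGFBR3 (0.61 ± 0.13) followed LTBP1, also in the microfibril list, and CCN2, also among the matricellular relatives. TGFBR3 was called in TEM2-5 (0.93, limma adjusted p = 0.00197) but not in TEM4-18 (0.30, limma adjusted p = 0.174). The ligand TGFB2 read 1595 and 1177 in TEM4-18 and 1956 and 2355 in TEM2-5, against 6113 and 6781 in PC-3, a fall of -1.88 ± 0.14. The receptor TGFBR1 fell by 0.40 and was not called in TEM2-5 (limma adjusted p = 0.0595). TGFBR1 was at -0.38 and not called without PC-3 replicate 2 (limma adjusted p = 0.0637).

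**Figure D4:**
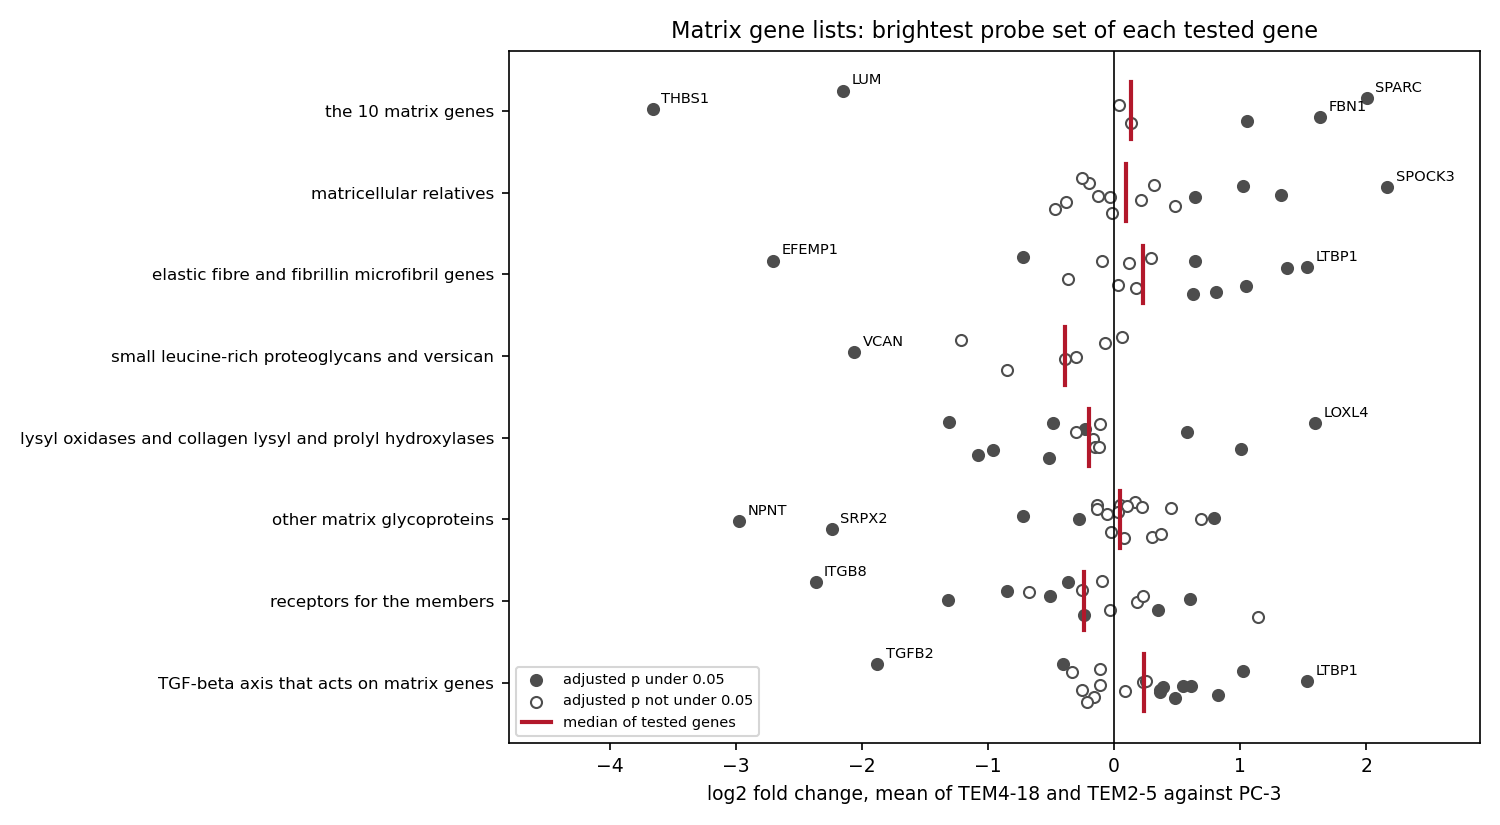
Log2 fold change, mean of TEM4-18 and TEM2-5 against PC-3, of the brightest probe set of each tested gene in 8 lists, with filled points for an adjusted p under 0.05, open points for the rest and a red bar at each list's median. THBS1 at -3.66 lies furthest left among the 10 genes, and LTBP1 appears in both the microfibril and the TGF-beta lists.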

How the data were processed

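The authors deposited 1 linear signal intensity per probe set and array. The submitters' processing notes name MAS5, whose version is not given in the sources used here. Their 2% trimmed mean was 1500.175 to 1500.18 on the 6 arrays, so they were not normalized again. No genome build is named by the labels. The titles gave the lines and replicates, and the second TEM2-5 array, whose source name says replicate 1, was taken by its title. Platform annotation gave 1 symbol to 41097 of 54675 probe sets, several to 1801 and none to 11777. Symbols were checked by gene ID against the RefSeq gene table of GRCh38.p14, which changed 0 and left 54 probe sets unmatched.

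Intensities were taken as log2(value + 51.8), the pseudocount being the 20th percentile of deposited values, which understates changes of dim genes. Probe sets with a mean above 174, the 40th percentile, were tested: 32747 probe sets of 13614 genes. The tests were those of limma 3.58.1 (R 4.3.3, lmFit, eBayes with a trend), two-sided, on all 6 arrays with 3 residual degrees of freedom. P-values were adjusted by Benjamini-Hochberg over every tested probe set, with a threshold of 0.05. A gene is its brightest single-symbol probe set, and for the 10 genes every probe set is given by its values or its range. From other lists, up to 4 genes a direction with the largest called change on the TEM lines' mean are named. CCN1, FBN2, EMILIN2 and TSKU are named in addition and are not in the counts of alternatives. Likeness was computed for the 3 called members with the largest change. The members and lists were chosen with earlier results of these data known. The _s_at and _x_at probe sets can match related transcripts. The number of arrays limits the precision. Detection calls were not used here. Alternatives covered the pseudocount, filter, trend, quantile normalization, averaging of probe sets, arrays fitted, a replicate block and leaving out each array.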

Additional observations from a re-analysis of the deposited data

Results flagged for a closer look

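The 7 genes given here had effects against PC-3 that differed between the TEM lines by a direct test of TEM4-18 against TEM2-5 (limma). In each the fall was deeper in TEM4-18. The log2 difference of TEM4-18 minus TEM2-5 was -2.77 ± 0.15 for THBS1 (limma adjusted p = 4.80e-06), -2.07 ± 0.23 for NPNT (limma adjusted p = 0.00099) and -1.88 ± 0.15 for ITGB8 (limma adjusted p = 7.67e-05). It was -0.99 ± 0.20 for EFEMP1 (limma adjusted p = 0.0369), -0.79 ± 0.14 for SDC2 (limma adjusted p = 0.0173), -0.67 ± 0.11 for PLOD2 (limma adjusted p = 0.0147) and -0.55 ± 0.11 for LOXL1 (limma adjusted p = 0.0406). Those other than THBS1 were named for their change on the mean of both lines, so the count only describes them. With 2 arrays a line, outlying arrays could not be tested.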

How the results depend on the processing

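For the 7 tested genes of the 10, 405 combinations of a result and an alternative were run. Of these, 380 kept direction and call, 5 lost the call and 6 gained it. In 14 the sign changed while the value was not called under either setting, all for FN1, TNC or LOXL2 and at most 0.17 in size, and 0 called values changed sign. For the other genes named for the largest called changes, 429 of 458 kept both, 27 lost the call and 2 reversed on averaging probe sets: CD44 at -0.55 and MATN2 at 0.17. Without the mean-variance trend, called probe sets numbered 5364 instead of 8396 in TEM4-18 against PC-3, 2324 instead of 5326 in TEM2-5, 5469 instead of 8640 on the mean and 125 instead of 584 between the TEM lines (300 with no filter), and SPARC was not called (limma adjusted p = 0.0690 in TEM4-18 and 0.0758 on the mean), nor were PCOLCE, CD44, EFEMP2 (limma adjusted p = 0.113) and MATN2 (limma adjusted p = 0.165). With no filter, EFEMP2 (limma adjusted p = 0.103) and MATN2 (limma adjusted p = 0.0635) were not called. Leaving out 1 array each in turn gave 5978 to 7740, 2820 to 5135, 5770 to 7616 and 218 to 550 called probe sets. A filter at the 60th percentile, which drops SPARC and LUM from the test, left 3 genes of the 10 called in TEM4-18 and 3 on the mean, where leaving out 1 array each gave 3 to 5. With replicate number as a block, 9443, 6429, 9717 and 873 probe sets were called, and 2 of the 10 genes between the TEM lines in place of 1, LUM being added (limma adjusted p = 0.0244). SPARC in TEM2-5 was called with the block (limma adjusted p = 0.0193). Same-numbered arrays deviated together at only 0.06 to 0.10 (log2, across probe sets), so the numbers were not taken to pair the arrays. SPARC in TEM4-18 was at 1.44 with 4 times the pseudocount and 3.76 with a pseudocount of 1, and on the mean of the lines at 1.14 and 3.29. LUM on that mean was at -1.32 and -3.39, and at -1.16 with probe sets averaged. With 4 times the pseudocount MFAP2 was at 0.89 and SRPX2 at -1.32. All of these were called. LUM in TEM2-5 was called when only the arrays compared were fitted (limma adjusted p = 0.0426), and EFEMP2, P4HA2, TGFBR1 and TGFBR3 were not called with probe sets averaged. The cause of each change other than the stricter filter was not tested. The 2 arrays a line, low MAS5 signals and 1 isolate per TEM line set the limits.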
